A study of Homo sapiens with 6 samples.

Results

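The ATP-binding cassette (ABC) genes of BT-549 cells were taken as the rows of the expression table whose symbol is ABC, a subfamily letter from A to G and a number. This gave 46 genes of 25545, of which 44 are described, and all counts and sums of ABC genes cover these 44. Among them are ABCC4 and ABCC5, whose RNA the study also assayed by qRT-PCR after NEAT1 silencing. BT-549 is an established line of triple-negative breast cancer (TNBC), and the cells were transfected with a control siRNA (CsiRNA) or an siRNA against the long noncoding RNA NEAT1 (NEAT1siRNA). RNA was taken after 48 h, from 3 replicates in each group, and poly(A) RNA-seq libraries were prepared. All 6 libraries came from BT-549 cells grown in serum and insulin, the sample titles write the cells as BT-549/tet, and the labels give no doxycycline. The comparison therefore rests on 1 cell line, 1 time point and RNA levels, and whether the 3 replicates were separate cultures beyond culture in triplicate is not stated, so p-values measure the spread between these libraries.

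ABC proteins are built around paired ATP-binding domains, and most use ATP hydrolysis to move substrates across a membrane. Subfamilies B, C and G hold the exporters that confer multidrug resistance, such as P-glycoprotein (ABCB1), the multidrug resistance proteins (MRPs) of subfamily C and the breast cancer resistance protein ABCG2. Subfamily A moves lipids, several B and D members work in mitochondria, lysosomes and peroxisomes, and E and F members have no membrane domain and act in translation.

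The targeted RNA and the identity of the cells were examined first. NEAT1 was at 13.4, 7.68 and 10.8 TPM (reads scaled by transcript length and by the library total) with CsiRNA and at 4.36, 2.96 and 2.73 TPM with NEAT1siRNA. The NEAT1siRNA mean was 31.5% of the control mean (log2 fold change -1.41, SE 0.14, limma adjusted p = 1.21e-07). This value covers the whole gene. It does not separate the short isoform from the long one, which the paper describes as the paraspeckle scaffold. All 5 mesenchymal markers examined were expressed, with a summed level of 1490 to 1680 TPM with CsiRNA and 1360 to 1590 TPM with NEAT1siRNA. ESR1 was listed at 0 in every library, PGR reached at most 0.00676 TPM, and ERBB2 lay between 5.76 and 6.36 TPM. Of the 6 epithelial markers, KRT18 was at 1.04 to 2.07 TPM and above 1 TPM in all 6 libraries, and the other 5 reached at most 0.283 TPM, with EPCAM above 0 in 1 library only (0.0301 TPM) and CDH1 at most 0.168 TPM. Their summed level was 1.34 to 1.88 TPM with CsiRNA and 1.85 to 2.78 TPM with NEAT1siRNA, and its part in the results was not tested. Of the leukocyte markers, PTPRC reached at most 0.058 TPM and CD3E was at 0, while CD68, a lysosomal protein that many cell lines also express, lay between 23.2 and 29.2 TPM. Depth ran from 15787257 to 20342818 recovered reads per library.

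The promoters of ABCC5, ABCF2 and ABCC4 are shown because ABCC4 and ABCC5 are the exporters at the centre of the comparison and ABCF2 shared an uncommon sequence word with ABCC5. The RefSeq promoter table (GRCh38.p14) held an entry for 15 of the 17 ABC genes described that were expressed highly enough to test, and each window of 250 bases before the annotated start was searched on both strands. Bases -250 to -61 are given 5′ to 3′, with these words in capitals: the GC box GGGCGG, the CCAAT box, and CTACANTTCC, on either strand.
ABCC5 (chr3:184017945-184018134, minus strand): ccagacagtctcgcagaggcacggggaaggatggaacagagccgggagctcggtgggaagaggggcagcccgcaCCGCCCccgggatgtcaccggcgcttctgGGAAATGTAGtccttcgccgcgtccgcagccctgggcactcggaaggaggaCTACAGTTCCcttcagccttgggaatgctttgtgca
ABCF2 (chr7:151227266-151227455, minus strand): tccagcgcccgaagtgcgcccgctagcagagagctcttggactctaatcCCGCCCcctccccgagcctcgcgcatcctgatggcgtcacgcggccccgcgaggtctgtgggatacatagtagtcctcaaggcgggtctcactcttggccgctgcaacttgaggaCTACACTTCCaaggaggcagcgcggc
ABCC4 (chr13:95301512-95301701, minus strand): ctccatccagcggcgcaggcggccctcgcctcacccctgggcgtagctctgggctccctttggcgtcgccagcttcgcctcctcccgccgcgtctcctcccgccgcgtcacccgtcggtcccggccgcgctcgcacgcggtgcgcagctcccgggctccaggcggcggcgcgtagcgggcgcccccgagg
The word CTACANTTCC was searched after these sequences had been seen, and it occurred at -147 to -138 and at -96 to -87 in ABCC5 and at -86 to -77 in ABCF2. It was present in 0.954% of all 35116 promoters in the table and in 2.54% of the 8316 tested genes with an entry. Of the 211 tested genes with this word in their promoter, 11.4% were past the threshold, against 14.0% of all genes tested. The GC box occurred in 13 of the 15 ABC genes and in 42.6% of all promoters (76.4% of the tested genes with an entry), and the ABCC4 window held neither it nor a CCAAT box. CCAAT occurred in 3 of the 15 ABC genes (32% of all promoters, 42.2% of tested genes) and the E-box CACGTG in 3 (6.34% and 11.7%). The antioxidant response core TGACNNNGC occurred in 7, ABCC4 among them (10.9% and 16%), the TATA word TATAAA in 2 (10.7% and 7.19%) and the AP-1 site TGACTCA in 0 (4.2% and 3.61%). These matches are descriptions of the sequence, and factor binding was not measured.

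BT-549 cells expressed ABC genes over a wide range, and 17 of the 44 had a mean of at least 1 TPM over the 6 libraries. The ribosome recycling factor ABCE1 was highest, at a mean of 80.7 TPM, and it held 36% to 40.8% of the summed ABC level in each library. Below it came the peroxisomal transporter ABCD3 at 29.9 TPM, the soluble ABCF2 at 21.1 TPM, the exporter ABCC4 at 21.07 TPM and the soluble ABCF3 at 12.4 TPM. ABCD3 was above ABCF2 and ABCC4 in every library, whereas the order of ABCF2 and ABCC4 changed between libraries and was not resolved. The other 12 lay between 1.23 TPM for the lysosomal ABCD4 and 7.52 TPM for ABCA3. This order holds for the listed TPM. Recovered reads per kb of canonical mRNA, relative to TPM, were 6.72 times the median of the tested ABC genes for ABCF1 and 1.97 times for ABCC1, against 0.872 to 1.2 times for the other 15. By reads per kb ABCF1 (788) stood above ABCD3 (675.7), ABCF2 (505.7) and ABCC4 (499.3), so the order differs between these scales, for a cause that was not tested. Of the remaining 27 genes, 6 were listed at 0 in every library (ABCB4, ABCB5, ABCC13, ABCG1, ABCG5 and ABCG8) and 21 were detected below a mean of 1 TPM. No member of subfamily G was therefore tested in the main limma fit.

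**Figure D1:**
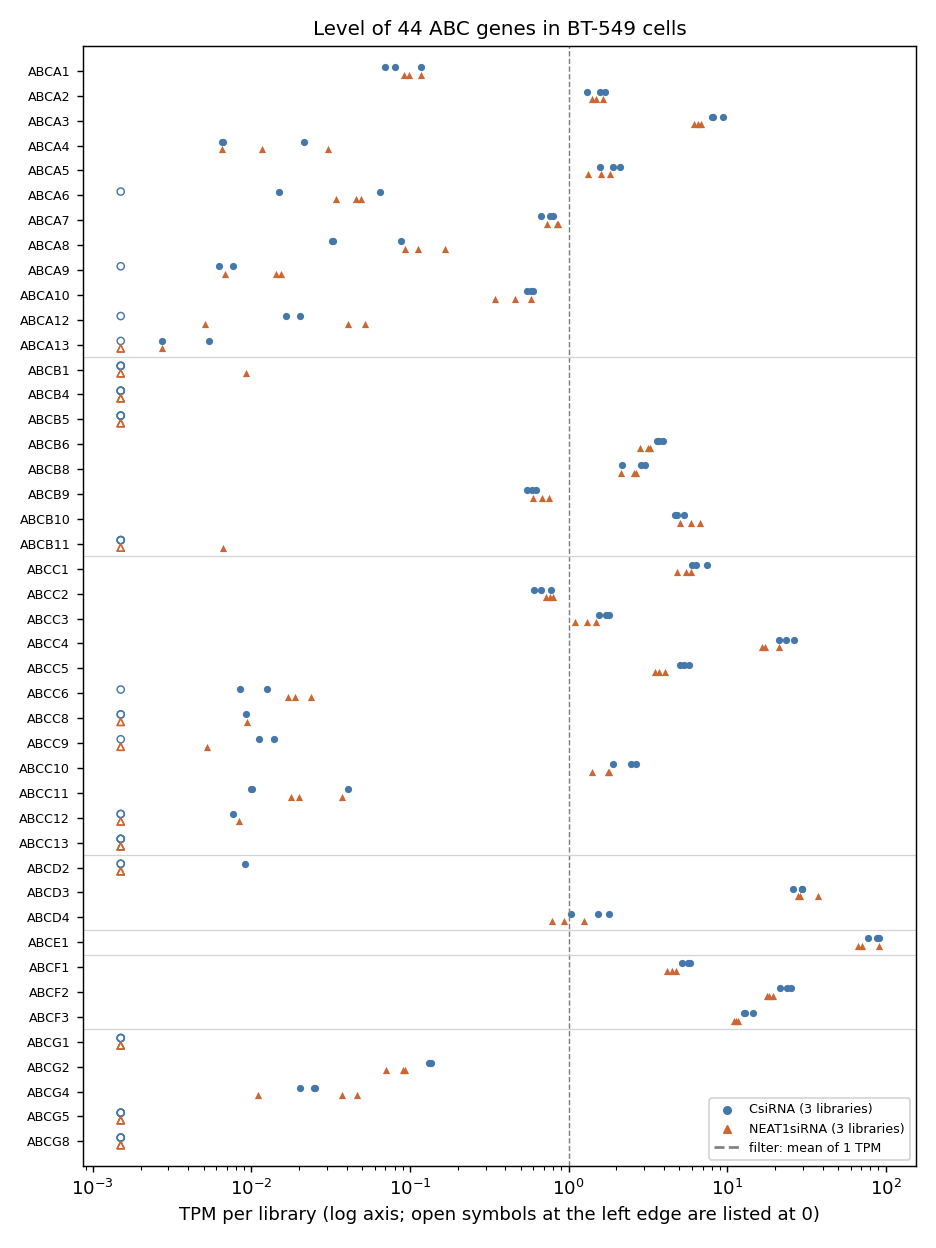
TPM of each of 44 ABC genes in each library on a log axis, with circles for CsiRNA and triangles for NEAT1siRNA (3 libraries each), open symbols at the left edge for values listed at 0 and a dashed line at a mean of 1 TPM. ABCE1 is highest, near 80.7 TPM, and ABCB4, ABCB5, ABCC13, ABCG1, ABCG5 and ABCG8 have open symbols only.

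After NEAT1 silencing, 5 of the 17 tested ABC genes described here were lower. The genes that fell were the exporters ABCC5, ABCC4 and ABCC10, the phospholipid transporter ABCA3 and the soluble ABCF2. Of all 10721 genes tested, 1498 (14.0%) were past the adjusted p threshold of 0.05, against 29.4% of these ABC genes. Lower calls alone made up 8.98% of all genes. None of the 17 was higher in limma, adjusted or at an unadjusted p under 0.05, beside 4.99% of all genes, and voom called ABCB10 higher. The fold change was negative for 15 of the 17 and positive for 2, with a median of -0.23 on the log2(TPM + 1) scale beside -0.044 for all genes tested. These counts describe the 17 genes and not the whole family, and 16 of the 17 averaged at least 1 TPM in both groups, the exception being ABCD4. On that scale the changes of low genes are understated, and in bulk RNA fewer cells with a transcript and less of it per cell cannot be told apart. The 3 NEAT1siRNA values lay outside the CsiRNA range for 9 of the 17 (all 9 below), or 52.9%, beside 30.3% of all genes tested. Of the calls over all genes, 35.7% were higher, a share that became 49.4% after quantile normalization, 54.8% after centring each library on its median and 46.7% with voom on recovered reads. Among ABC genes, quantile normalization gave 6 lower calls, centring 4 lower and 1 higher call, and voom 7 lower and 1 higher call. Of all 10721 genes, 1109, 954 and 1322 were called lower in these 3 settings, and 1082, 1158 and 1158 higher. No fold change of these ABC genes exceeded 0.5 in size in this fit.

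**Figure D2:**
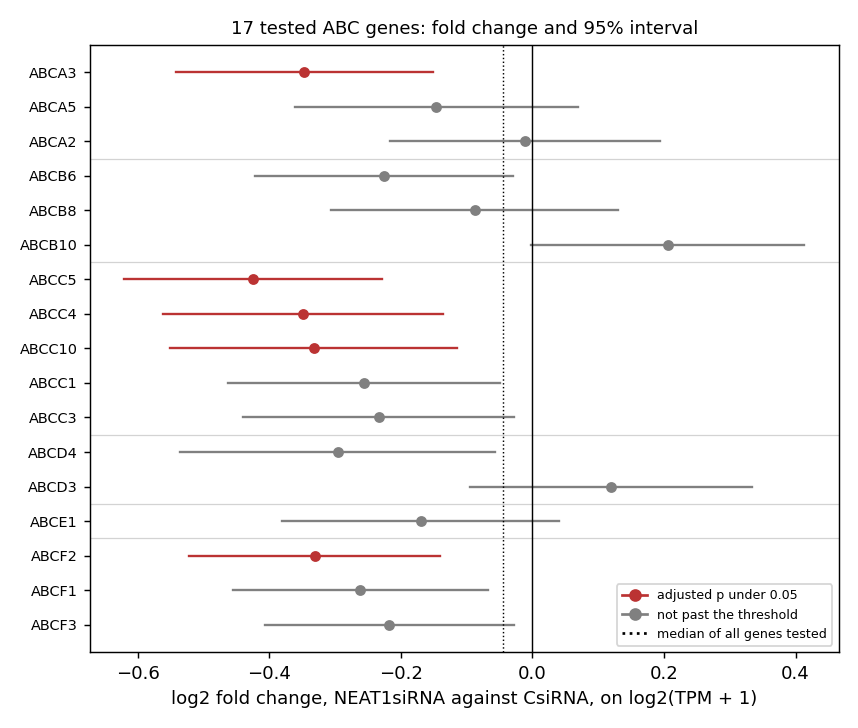
Log2 fold change of NEAT1siRNA against CsiRNA with its 95% confidence interval for 17 tested ABC genes, by subfamily from A at the top to F, on log2(TPM + 1) with 3 libraries per group. Red marks an adjusted p under 0.05, which ABCC5, ABCC4, ABCC10, ABCA3 and ABCF2 have to the left of 0, and the dotted line is the median of all genes tested (-0.044).

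ABCC5 (MRP5), an exporter of cyclic nucleotides and nucleoside analogues, gave the lowest adjusted p of the ABC genes described. ABCC5 stood at 5.78, 5.03 and 5.39 TPM with CsiRNA and at 4.05, 3.73 and 3.52 TPM with NEAT1siRNA. Every NEAT1siRNA value was below every control value, and the means were 5.4 ± 0.375 and 3.77 ± 0.263 TPM (SD, n = 3), or 69.8% of the control. The log2 fold change was -0.42 (SE 0.095, 95% interval -0.62 to -0.23, limma adjusted p = 0.00351). ABCC5 remained past the threshold with each library left out, with adjusted p from 0.00133 to 0.0269. The gene lies on chromosome 3 at 183919934 to 184017939 of GRCh38 (minus strand), and its overlapping antisense gene ABCC5-AS1 was listed at 0 in every library.

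ABCC4 (MRP4) exports cyclic nucleotides, prostaglandins and nucleotide analogues. It was the most abundant member of its subfamily, with 55.2% to 62.9% of the summed ABCC level. ABCC4 was at 26.3, 23.7 and 21.1 TPM with CsiRNA and at 17.3, 21.3 and 16.7 TPM with NEAT1siRNA. On the listed TPM the groups overlapped, since NEAT1siRNA replicate 2 was slightly above CsiRNA replicate 3. The mean was 77.7% of the control, with a log2 fold change of -0.35 (SE 0.10, 95% interval -0.56 to -0.14, limma adjusted p = 0.025). ABCC4 was no longer past the threshold without CsiRNA replicate 1 (adjusted p = 0.1705), without NEAT1siRNA replicate 1 (0.0543) or without NEAT1siRNA replicate 3 (0.148), and without NEAT1siRNA replicate 2 its adjusted p was 6.9e-05. The gene lies on chromosome 13 at 95019835 to 95301475 (minus strand).

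The level of ABCC5 relative to ABCC4 was compared within each library. The ratio was 0.219, 0.213 and 0.255 with CsiRNA and 0.233, 0.175 and 0.211 with NEAT1siRNA. These ranges overlapped (exact two-sided permutation p = 0.4, where 3 against 3 libraries cannot go below 0.1).

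ABCC10 (MRP7), an exporter that accepts taxanes, was the third member of subfamily C past the threshold. ABCC10 was at 2.67, 1.91 and 2.49 TPM with CsiRNA and at 1.81, 1.41 and 1.76 TPM with NEAT1siRNA. The groups did not overlap, and the mean fell to 70.4% of the control (log2 fold change -0.33, SE 0.11, limma adjusted p = 0.0365). The call was lost without CsiRNA replicate 1, CsiRNA replicate 3, NEAT1siRNA replicate 2 or NEAT1siRNA replicate 3, with adjusted p of 0.186, 0.0959, 0.0863 and 0.069, and also after quantile normalization (0.0582) and median centring (0.1002). ABCC10 lies on chromosome 6 at 43427366 to 43450427 (plus strand) and overlaps DLK2 on the opposite strand.

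The other tested C members, ABCC1 and ABCC3, did not pass the threshold as fitted, although both were at an unadjusted p under 0.05 (0.0169 and 0.0276). ABCC1 (MRP1), which exports glutathione conjugates and anthracyclines, was at 7.47, 6.05 and 6.41 TPM with CsiRNA and at 5.89, 5.47 and 4.82 TPM with NEAT1siRNA. These groups did not overlap, and the log2 fold change was -0.26 (SE 0.10, limma adjusted p = 0.0896). ABCC1 was past the threshold after quantile normalization (-0.22, adjusted p = 0.0485) and with voom (-0.25, 0.0226). ABCC3 (MRP3), an exporter of bile salts and glucuronides, had a log2 fold change of -0.23 with non-overlapping groups (adjusted p = 0.123). All 5 tested C members thus had negative fold changes, with a median of -0.33. Past the threshold were 3 of the 5, beside 8.98% of all genes tested called lower. The summed level of subfamily C was 44.9, 38.9 and 37.9 TPM with CsiRNA and 31.4, 33.8 and 28.9 TPM with NEAT1siRNA, or 77.4% of the control mean. The groups did not overlap, and the exact permutation p was 0.1, the smallest that 3 against 3 libraries can give.

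**Figure D3:**
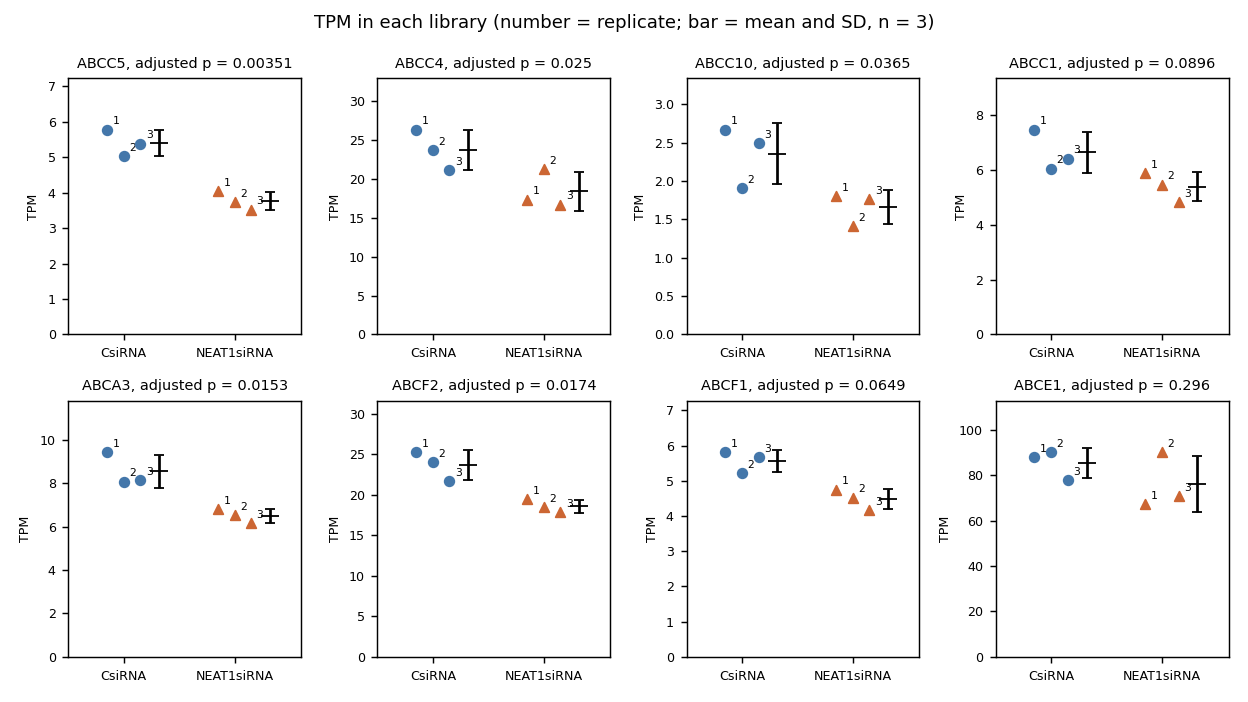
TPM in each library (numbers give the replicate) with the mean and SD of each group (bars, n = 3) for ABCC5, ABCC4, ABCC10, ABCC1, ABCA3, ABCF2, ABCF1 and ABCE1, each axis starting at 0. The ABCC4 and ABCE1 groups overlap through NEAT1siRNA replicate 2, at 21.3 and 90.2 TPM, and the other 6 do not overlap.

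The best known drug exporters outside subfamily C were barely detected. ABCB1 (P-glycoprotein) had 1 recovered read in NEAT1siRNA replicate 1 and 0 in each of the other libraries. A count of 0 allows up to 3 reads, or 0.148 to 0.19 CPM (reads scaled by library total) at these depths, counting error only, and no fold change was given. ABCG2 was at 0.133, 0.131 and 0.137 TPM with CsiRNA and at 0.0907, 0.0936 and 0.0704 TPM with NEAT1siRNA. The ABCG2 groups did not overlap, but these values rest on 15, 15 and 19 recovered reads against 11, 12 and 8. ABCC2 (MRP2), a canalicular exporter of conjugates, had a mean of 0.723 TPM. ABCC11 was at 0.0226 TPM, ABCC6 at 0.0134 TPM and ABCC12 at 0.00268 TPM, and the potassium channel subunits ABCC9 and ABCC8 were at 0.00504 and 0.0031 TPM. ABCB5, found in melanoma, and ABCC13, which encodes no functional transporter, were listed at 0. Of the hepatic bile exporters, ABCB11 had 1 read in 1 library and ABCB4 was listed at 0.

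Of the lipid transporters, ABCA3 fell while ABCA2 and ABCA5 did not pass the threshold. ABCA3, which loads phospholipid into lamellar bodies of lung cells, was at 9.43, 8.06 and 8.13 TPM with CsiRNA and at 6.8, 6.52 and 6.15 TPM with NEAT1siRNA. The ABCA3 groups did not overlap (log2 fold change -0.35, SE 0.095, limma adjusted p = 0.0153), and the mean was 76% of the control. The call was lost without CsiRNA replicate 1 (adjusted p = 0.107) and without NEAT1siRNA replicate 3 (0.0802). ABCA3 lies on chromosome 16 at 2275881 to 2340746 (minus strand) and overlaps ABCA17P on the opposite strand, which reached at most 0.0939 TPM. The log2 fold change was -0.15 for ABCA5 (95% interval -0.36 to 0.069) and -0.011 for ABCA2 (-0.22 to 0.19), lysosomal proteins of lipid handling. With libraries left out ABCA5 ranged from -0.22 (without CsiRNA replicate 2) to -0.073 (without NEAT1siRNA replicate 3). The summed level of subfamily A was 14.8, 12.4 and 13.3 TPM against 11.7, 11.5 and 10.5 TPM, with no overlap (exact permutation p = 0.1).

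The sterol exporters were low in these cells. ABCA1, which loads cholesterol onto apolipoprotein A-I, had a mean of 0.0963 TPM, and its partner in cholesterol efflux ABCG1 was listed at 0. ABCG5 and ABCG8, which form the intestinal and hepatic plant sterol exporter, were also at 0, and ABCG4 had 0.0275 TPM. ABCA7 was at 0.779 TPM and ABCA10 at 0.517 TPM. ABCA8, ABCA6, ABCA12, ABCA4, ABCA9 and ABCA13 were between 0.00181 and 0.0874 TPM.

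Neither of the tested D members described passed the threshold with all libraries in limma or voom, with ABCD4 at an unadjusted p under 0.05. ABCD3, the peroxisomal importer of branched-chain acyl-CoA, was at 29.9, 29.5 and 26.1 TPM with CsiRNA and at 27.9, 37.2 and 28.6 TPM with NEAT1siRNA. Its groups overlapped, with replicate 2 of NEAT1siRNA highest (log2 fold change 0.12, 95% interval -0.095 to 0.33). ABCD2, another peroxisomal transporter, had 1 read in 1 library. ABCD4, which acts in lysosomal cobalamin export, had a log2 fold change of -0.30 with overlapping groups (adjusted p = 0.0916). ABCD4 passed the threshold without CsiRNA replicate 2 (-0.43, limma adjusted p = 0.00497), without NEAT1siRNA replicate 1 (-0.39, 0.0161) and with a trend on GC content and length removed (-0.25, 0.0466), and was at -0.19 without CsiRNA replicate 3. ABCD4 averaged 1.46 TPM with CsiRNA and 0.993 TPM with NEAT1siRNA, so it reached the filter of 1 TPM through the control group. Its calls in these settings are therefore not taken as support for a change.

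None of the 3 B members described at or above 1 TPM, which act in mitochondria or on porphyrins, passed the threshold in limma, with ABCB6 at an unadjusted p under 0.05 and ABCB10 called by voom. ABCB10, which acts in heme synthesis, was at 5.31, 4.82 and 4.71 TPM with CsiRNA and at 5.06, 6.71 and 5.89 TPM with NEAT1siRNA. Its groups overlapped, and the log2 fold change was 0.21 (SE 0.10, limma adjusted p = 0.187), which became 0.26 (0.0382) after median centring. With libraries left out it ranged from 0.12 (without NEAT1siRNA replicate 2) to 0.29. ABCB6 had a log2 fold change of -0.23 (adjusted p = 0.118) and ABCB8 of -0.088 (0.642), which ranged from -0.19 (without CsiRNA replicate 2) to -0.017 (without NEAT1siRNA replicate 3). The sum over the B members described was 101% of the control (exact permutation p = 0.8). The lysosomal peptide transporter ABCB9 had a mean of 0.631 TPM.

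All 4 soluble members had negative fold changes, with ABCF2 past the threshold. ABCF2 was at 25.2, 24.0 and 21.7 TPM with CsiRNA and at 19.4, 18.5 and 17.8 TPM with NEAT1siRNA, and the groups did not overlap. The mean was 78.5% of the control (log2 fold change -0.33, SE 0.093, limma adjusted p = 0.0174). The ABCF2 call was lost without CsiRNA replicate 1 (adjusted p = 0.111), CsiRNA replicate 2 (0.0695) or NEAT1siRNA replicate 3 (0.0871). ABCF2 lies on chromosome 7 at 151211484 to 151227205 (minus strand) and shares its locus with the readthrough gene ABCF2-H2BK1, so its reads are uncertain where counting split them. ABCF1, a translation initiation partner, had a log2 fold change of -0.26 (adjusted p = 0.0649) and ABCF3 of -0.22 (0.117), both with non-overlapping groups. On the listed TPM the summed F level was 45.6, 42.2 and 40.2 TPM against 35.9, 34.4 and 33.1 TPM, or 80.8% of the control (exact permutation p = 0.1). ABCE1 was at 87.9, 90.1 and 77.8 TPM with CsiRNA and at 67.3, 90.2 and 70.9 TPM with NEAT1siRNA. NEAT1siRNA replicate 2 had the highest listed TPM of all 6 libraries for ABCE1, and the log2 fold change was -0.17 (95% interval -0.38 to 0.04, adjusted p = 0.296). Without that library ABCE1 was past the threshold (-0.30, limma adjusted p = 0.00931), as it was with the GC and length trend removed (-0.24, 0.0212), and it was at -0.089 without NEAT1siRNA replicate 1.

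Over the 44 genes the summed level was 237.4, 225.5 and 209.2 TPM with CsiRNA and 187.3, 221.1 and 184.4 TPM with NEAT1siRNA. On the listed TPM the groups overlapped through NEAT1siRNA replicate 2, and the mean was 88.2% of the control (exact permutation p = 0.2). Short noncoding RNAs held 64.9% of the listed TPM in NEAT1siRNA replicate 2 and 67.7% in CsiRNA replicate 3. Relative to the rest of the TPM, every NEAT1siRNA sum was below every CsiRNA sum, so the overlap holds for the listed TPM only. The sum of the D members described was 108% of the control (exact permutation p = 0.7).

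The order of NEAT1siRNA replicates 1 and 2 in ABC genes went with GC content. Across 10424 tested genes, the deviation of a library from its group mean had a Spearman correlation with mRNA GC content of -0.209, -0.34 and 0.471 for CsiRNA replicates 1 to 3 and of 0.677, -0.73 and 0.135 for NEAT1siRNA replicates 1 to 3, a description across genes of single libraries. Replicate 1 was below replicate 2 for ABCE1, ABCD3, ABCB10, ABCC4 and ABCA5, the described ABC genes with the lowest GC content (33.2% to 45.4%), and above it for the other 12 (50.4% to 63.5%). ABCC4, at 42.6% GC, is among the former and ABCC5, at 50.6%, among the latter. The log2 fold change itself had a Spearman correlation of -0.127 with GC content over the 17 genes. With a trend on GC content and mRNA length removed from each library, 8 ABC genes passed the threshold, beside 2381 of all 10424 genes. In this setting, chosen after seeing the data, ABCC4 was at -0.35 (adjusted p = 0.000429) and ABCC5 at -0.38 (0.000363). The part of this library difference in the other results was not tested.

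**Figure D4:**
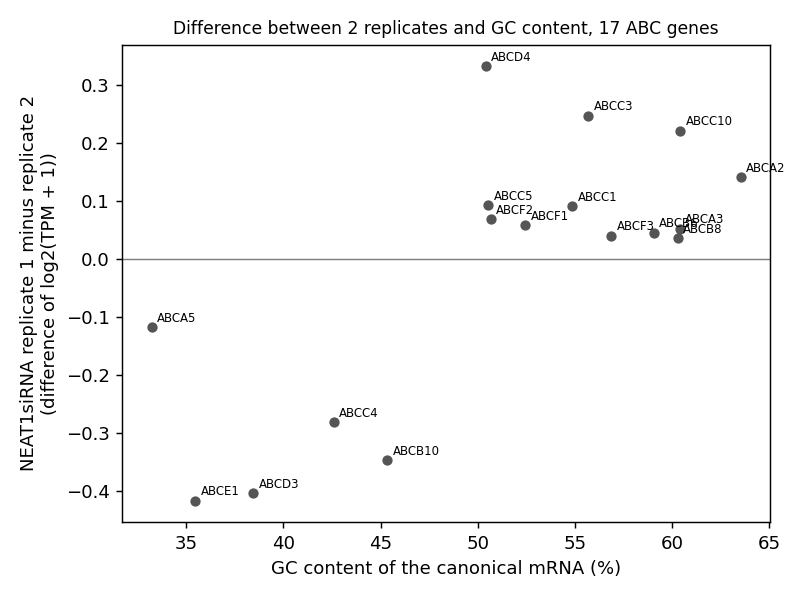
Difference between NEAT1siRNA replicates 1 and 2 in log2(TPM + 1) against the GC content of the canonical mRNA (%) for 17 tested ABC genes, 1 point per gene. The 5 genes up to 45.4% GC lie below 0 and the 12 genes from 50.4% GC lie above 0.

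Recovered reads were also fitted with limma voom on log2 CPM. Of the 17 tested ABC genes, 8 passed the threshold, 7 lower and 1 higher, beside 23.1% of all 10721 genes. The 5 genes named above were among the 8, and the others were ABCC1, ABCF1 (log2 fold change -0.27, adjusted p = 0.00943) and ABCB10 (0.29, 0.0347). Members too low in TPM were fitted where reads averaged at least 10, a setting chosen after seeing the data. The intervals included 0 for ABCA1 (0.27), ABCA7 (0.18), ABCA10 (-0.30), ABCB9 (0.24), ABCC2 (0.21) and ABCG2 (-0.59, 95% interval -1.20 to 0.022, adjusted p = 0.162). ABCA8, a lipid transporter, had 4, 11 and 5 recovered reads with CsiRNA and 22, 13 and 14 with NEAT1siRNA, which do not overlap but are few. It reached a mean of 10 reads through the NEAT1siRNA group alone, so its test was left out. The other 14 detected members averaged at most 4.83 reads and were tested only in the fit without a filter on TPM.

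**Figure D5:**
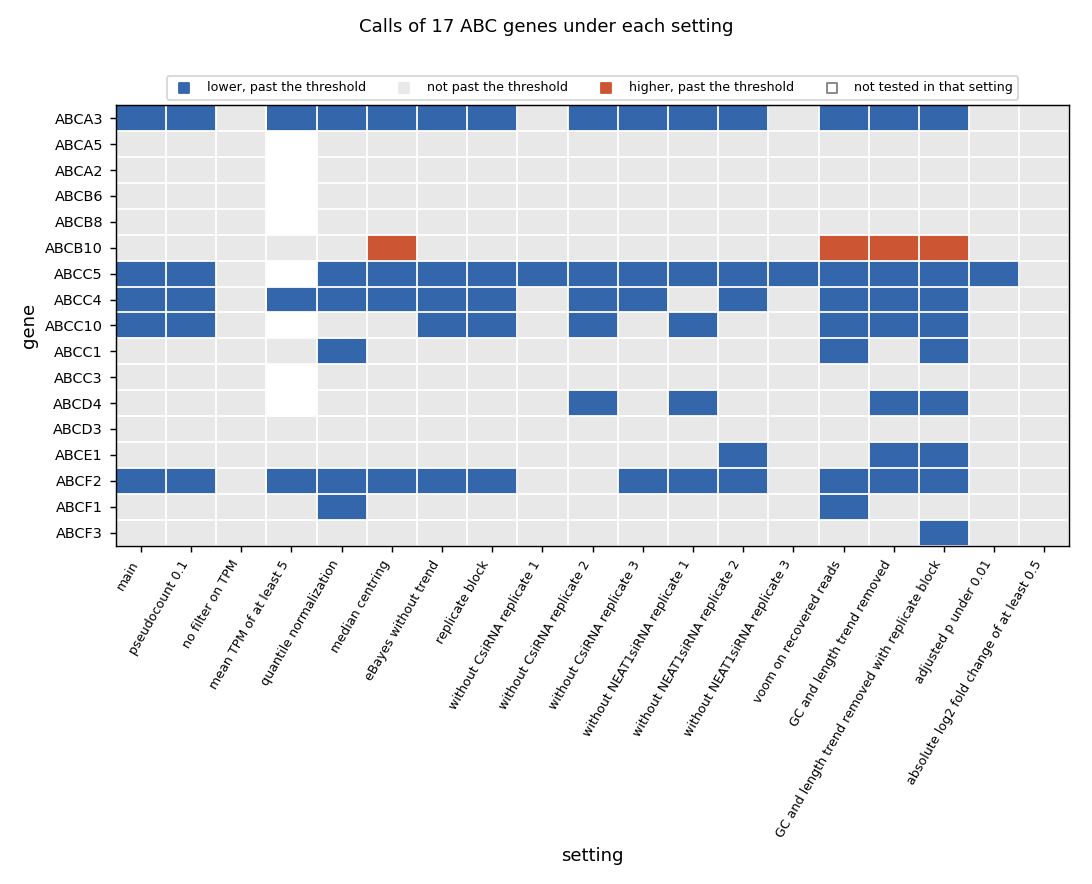
Calls of 17 tested ABC genes (rows) in the main fit and in each other setting (columns), with blue for lower, red for higher, grey for not past the threshold and white for not tested in that setting. ABCC5 is coloured in 15 of the 17 other settings in which it was tested, ABCC4 in 12 of 18, and no gene is coloured without a filter on TPM or where a log2 fold change of 0.5 or more in size was also required.

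Genes that work with the ABC proteins were examined in 12 lists of 179 genes, of which 111 were tested. There were 16 genes past the threshold (7 lower and 9 higher), or 14.4% beside 14.0% of all genes tested. The 16 include SLCO2A1, which reached the filter through the control group. For the counts by list below, the shares over all genes were 8.98% lower and 4.99% higher in limma, and 23.1% with voom. Of the 16, 10 kept the call with each library left out, and the other 6 were ALAD, ETF1, RXRA, SLCO2A1, SNTB1 and SREBF1.

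In the list nearest to drug efflux, with 12 tested uptake and other drug transporters, the organic anion transporter SLCO4A1 fell (from 12.4 to 13.4 TPM down to 6.84 to 8.1 TPM, log2 fold change -0.70, limma adjusted p = 1.5e-05), as did the nucleoside carrier SLC29A1 (-0.48, 0.000776). SLCO2A1 was also past the threshold (-0.34, 0.0345), but it averaged 1.42 TPM with CsiRNA and 0.914 TPM with NEAT1siRNA and so reached the filter through the control group, and its call was lost without CsiRNA replicate 1 or 3 or NEAT1siRNA replicate 3 (adjusted p from 0.0835 to 0.192). None was called higher in limma, whereas voom called 6, with these 3 and ATP7A (-0.28) lower and the copper importer SLC31A1 (0.23, adjusted p = 0.0147) and the exporter SLC47A1 (0.45, 0.0191) higher. SLC29A1 takes up nucleoside drugs and stood at 39.2 to 42.9 TPM with CsiRNA and 28 to 32.1 TPM with NEAT1siRNA. Of 17 tested glutathione and phase 2 enzymes, which make the conjugates that MRPs carry, GSTA4 passed the threshold in limma (0.38, adjusted p = 0.00733). At an unadjusted p under 0.05 were 6 of the 17, beside 2942 of all 10721 genes. For the same list 5 passed after quantile normalization, 5 after median centring and 5 with voom. Of all 10721 genes, 2191, 2112 and 2480 passed in these settings. The 5 with voom were GSTA4, GCLM, GSTP1 and EPHX1 (higher) and SRXN1 (lower). Of the phase 1 enzymes, 2 were tested, CYP1B1 (0.20) and POR (0.028), and neither passed in limma, at an unadjusted p under 0.05 or with voom (0 of 2 each), while voom over genes averaging at least 10 reads gave CYP1B1 an adjusted p of 0.0478. Of 13 tubulins and microtubule proteins tied to taxane response, TUBB4A (0.52, adjusted p = 0.00102) and the microtubule destabilizer STMN1 (0.36, 0.00395) rose and none fell in limma, with 4 called by voom.

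Of 13 tested regulators of ABC gene expression, the nuclear receptor RXRA passed the threshold in limma, and RXRA and NFE2L2 were among those that passed it with voom. RXRA was at 1.95 to 2.51 TPM with CsiRNA and 2.69 to 3.15 TPM with NEAT1siRNA (log2 fold change 0.33, limma adjusted p = 0.029), and its call was lost without CsiRNA replicate 2 or 3 or NEAT1siRNA replicate 1 (adjusted p from 0.0742 to 0.112). Of 9 tested targets of the liver X receptors (LXRs) outside the ABC family, 3 rose and none fell in limma or with voom. Among all 10721 genes, 4.99% were called higher in limma, and voom called 1158 higher. The 3 targets were MYLIP, which degrades the LDL receptor (0.63, adjusted p = 9e-05), the desaturase SCD (0.49, 0.000353) and the lipogenic factor SREBF1 (0.31, 0.0396). The SREBF1 call was lost without CsiRNA replicate 1 or 2 or NEAT1siRNA replicate 1 (adjusted p from 0.0534 to 0.264). Of 9 tested sterol efflux partners, the lysosomal cholesterol exporter NPC1 fell (-0.65, 8.9e-05) and SNTB1, a syntrophin that binds ABCA1, rose (0.32, 0.04), with 5 called by voom. The SNTB1 call was lost without any 1 of CsiRNA replicates 2 and 3 and NEAT1siRNA replicates 2 and 3 (adjusted p from 0.0784 to 0.141).

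Of the 9 tested genes of peroxisomal fatty acid oxidation, the setting of ABCD3, none passed the threshold in limma, with 2 (SCP2 and CRAT) at an unadjusted p under 0.05 and the same 2 called by voom. In heme and iron-sulfur cluster synthesis, the setting of ABCB10, ALAD rose (0.29, adjusted p = 0.0433) and the mitochondrial iron importer SLC25A37 fell (-0.43, 0.00267) among 16 tested, with 5 called by voom. The ALAD call was kept only without CsiRNA replicate 3 or NEAT1siRNA replicate 2, and was otherwise lost with a library left out (adjusted p from 0.0925 to 0.187). In ribosome recycling and the GCN2 pathway, to which ABCE1 belongs, the ribosome-bound GCN1 (-0.47, 0.00201) and the termination factor ETF1 (-0.36, 0.0161) fell among 10 tested, and ETF1 was not past the threshold without CsiRNA replicate 1 (0.122) or NEAT1siRNA replicate 3 (0.11). None of the 3 potassium channel partners was tested. Of the ABC proteins with other symbols, the antigen peptide transporter subunits TAP1 (-0.059, adjusted p = 0.743) and TAP2 (-0.20, 0.174) did not pass in limma. However, TAP2 was at an unadjusted p under 0.05 and was called by voom, and CFTR was below 1 TPM. TAP1 and TAP2 averaged 1.85 and 2.14 TPM on 1035 and 2319 recovered reads, and log2(TPM + 1) understates changes at such low TPM.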

How the data were processed

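RNA-seq libraries of BT-549 cells, 3 with CsiRNA and 3 with NEAT1siRNA, were prepared by the authors with a stranded mRNA kit. Reads were aligned with STAR to GRCh38 per the submitters' processing notes, and the counting tool and its strand setting are not given in the sources used here. The deposited values are TPM for 25545 genes. A second deposited table gives, for 19392 genes, the authors' mean normalized counts over the 6 libraries (a signal after division by size factors). It also holds the authors' own DESeq2 fold changes, test scores and p-values, which were not used. TPM keep no depth, so whole reads were recovered by scaling the TPM of each gene to its mean normalized count. The share of recovered values lying no further than 0.05 from an integer was 99.9% where the mean normalized count was below 5, 98.5% from 5 to 50, 73.5% from 50 to 500 and 17.2% above that, so reads of abundant genes are approximate. In each library 4 short noncoding RNAs held 64.4% to 68.1% of TPM.

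Genes averaging 1 TPM or more were compared on log2(TPM + 1) with lmFit and eBayes (trend) of limma 3.58.1 in R 4.3.3, with Benjamini-Hochberg adjustment over all 10721 genes and a threshold of 0.05. Sums and ratios were compared by exact two-sided permutation of the libraries. The scripts were tested on simulated data. Coordinates, GC content and overlaps came from GENCODE release 44 (GRCh38) through gene symbols, with 22278 current and 783 older symbols found and 2484 not found. Promoter sequences came from RefSeq. Python 3.11.15, numpy 2.4.6, pandas 2.3.3 and matplotlib 3.10.9 were used. The members, lists and rules were chosen with earlier results of these data known. The results of 2 ABC genes are not reported here, whatever their values, and counts, sums and plots of ABC genes leave them out, while the fit and its adjustment hold all genes. Every other tested member was named, library values were given for ABCC4, ABCC5, ABCB1, ABCC1, ABCG2, called members and the top member of each subfamily, and up to 4 called genes were named per list. Values for the other members follow that rule as means. Alternatives were another pseudocount, other TPM filters, scaling, moderation, a replicate block, each library left out, stricter thresholds and voom. Removal of a GC and length trend and voom at a mean of at least 10 reads were added after seeing the data.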

Additional observations from a re-analysis of the deposited data

How the results depend on the processing

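Over all genes, the 1498 calls became 505 without a filter on TPM, 719 at an adjusted p under 0.01, 314 at a log2 fold change of 0.5 or more in size, 2480 with voom and 2381 with the GC and length trend removed, and ranged from 759 to 2083 with each library left out. At a mean TPM of at least 5, 1032 of 7237 genes were called. The 5 ABC calls became 0 without a filter (limma, 12 of 38 at an unadjusted p under 0.05) and 3 of 9 at a mean TPM of at least 5. They were 8 of 17 with voom, which kept the filter of 1 TPM, and 8 with the GC and length trend removed. They were 1 at an adjusted p under 0.01 and 0 at a log2 fold change of 0.5 or more in size (11 at an unadjusted p under 0.05). At an unadjusted p under 0.05 were 2942 of all 10721 genes in the main fit and 3599 of 18531 without a filter. The ABC calls ranged from 1 (ABCC5) to 5 with each library left out, and were 1 without CsiRNA replicate 1 or without NEAT1siRNA replicate 3. ABCC4 (-0.35) and ABCC5 (-0.42) were not past the threshold without a filter (adjusted p = 0.173 and 0.0541) or at a log2 fold change of 0.5 or more in size, and ABCC4 was not at an adjusted p under 0.01. The cut of 0.5 was applied on log2(TPM + 1). On log2(TPM + 0.1) ABCC5 was at -0.51 (limma adjusted p = 0.00332) and ABCC4 at -0.36 (0.0264). With libraries left out ABCC4 ranged from -0.45 to -0.27, ABCC5 from -0.47 to -0.38 and NEAT1 from -1.60 to -1.24. Without a filter the median of subfamily A became 0.0087, that of subfamily B 0.0038 and that of subfamily C -0.0094. ABCA2 turned to 0.018 with quantile normalization, 0.046 with median centring, 0.016 with voom, 0.0022 without CsiRNA replicate 1, 0.038 without CsiRNA replicate 3 and 0.020 without NEAT1siRNA replicate 2. With libraries left out it ranged from -0.074 to 0.038, and ABCD3 ranged from -0.0093 (without NEAT1siRNA replicate 2) to 0.19. Why these values moved was not tested, except for 2 points that hold by construction. Stricter thresholds call fewer genes. The fit without a filter left the fold changes of the 17 genes as they were and added members below 1 TPM to the medians.

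Same-numbered libraries had correlated deviations of -0.030, 0.251 and -0.107 for numbers 1, 2 and 3, and the numbers were not taken as pairs. Library deviations also went with GC content, so these correlations cannot decide whether the replicates were paired. With the replicate number as a block 1640 genes and 5 ABC genes were called, and with the block and the GC and length trend removed 2652 and 10. Not every library correlated best with its own number. Members averaging under 10 recovered reads were tested only in the fit without a filter on TPM.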

Other observations

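ABC pseudogenes and antisense genes, whose symbols are not those of the family members, were examined apart. ABCA11P was the only one above a mean of 1 TPM, at 2.16, 2.02 and 1.78 TPM with CsiRNA and 2.09, 2.51 and 1.95 TPM with NEAT1siRNA, with overlapping groups (log2 fold change 0.09, SE 0.10, limma adjusted p = 0.617). ABCC6P2 was above ABCC6 in mean level (0.0958 against 0.0134 TPM), on a mean of 2.5 and 3.33 recovered reads, and the division of reads between these near copies is uncertain. ABCC6P1, ABCA9-AS1 and ABCC5-AS1 were listed at 0 in all 6 libraries.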
